A study of Mus musculus with 6 samples.

Results

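The major urinary proteins are encoded by a family of closely related genes, of which 10 (Mup1, Mup2, Mup3, Mup7, Mup11, Mup12, Mup17, Mup19, Mup20 and Mup21) were followed across mouse livers. They were taken by gene name from the deposited expression table, where they are 10 of 55222 rows and 10 of the 48 rows whose name begins with Mup. The RNA came from livers of C57BL/6 mice, sequenced as 6 libraries, 2 in each of 3 groups. Normal livers are labelled only as normal, with no CCl4 dose or virus listed for them. The AAV-Ctrl group received carbon tetrachloride (CCl4), a solvent that liver enzymes turn into a toxic radical, and a control adeno-associated virus (AAV). The AAV-shPhpt1 group received CCl4 and a virus with a short hairpin RNA against Phpt1, which encodes a phosphatase acting on phosphohistidine. Per the labels, CCl4 was injected into the abdomen at 12.5 ml/kg 2 times per week in olive oil, the virus followed intravenously after 1 week, and tissue was taken 48 h after the last CCl4 dose. Groups of 5 mice are stated for the virus experiment, without saying which animals gave the libraries, and the promoter that drives the hairpin, the age and the sex are not stated there. As labelled, normal livers differ from the AAV-Ctrl livers by CCl4, given in olive oil, and by the virus, and these effects cannot be told apart.

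Major urinary proteins are lipocalins, small barrel-shaped carriers that hepatocytes secrete into the blood and the kidney passes into the urine. In urine they bind volatile pheromones and release them slowly, and some act as signals of individual identity, dominance or sex. Adult male mice make far more of them than females. In male liver their transcription depends on pulses of growth hormone, which act through the growth hormone receptor, Jak2 and Stat5b, and also on androgen, thyroid hormone and glucocorticoids. The gene family lies in a single array, in which a central group of recently duplicated, almost identical genes is flanked by more divergent members.

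All 10 members lay on the minus strand of chromosome 4 in the GRCm38 annotation, between 60066469 and 62150863, a span of 2084395 bases. From the low end the order was Mup7, Mup2, Mup1, Mup11, Mup12, Mup17, Mup19, Mup20, Mup3 and Mup21. The transcripts of the first 7 in that order were 98.2% to 99.6% identical in 21 pairwise alignments, and these genes are called the near-identical members below. Their identity was 89.7% to 90.3% with Mup20, 84.3% to 84.9% with Mup3 and 85.2% to 86.1% with Mup21, while Mup3 and Mup21 were 95.04% identical to each other. Reads from near-identical copies can be assigned to the wrong copy. The share of 50-base windows found in the transcripts of no other gene was 86.7% in Mup3, 80.7% in Mup21 and 49.5% in Mup20. It was 38.4% in Mup1, between 13.3% and 22.2% in Mup2, Mup7, Mup11, Mup12 and Mup17, and 0% in Mup19. Mup20 shared 48.0% of its windows with the pseudogene Mup-ps19. How the reads of the 7 near-identical members were divided among them is therefore uncertain, and their sum is given beside the single values.

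Upstream sequence was compared for the members that have it. RefSeq promoter windows of GRCm38.p6, reaching from 250 bases before to 50 bases after the start, matched 7 of the 10 members: Mup2, Mup3, Mup7, Mup11, Mup17, Mup19 and Mup21. The 4 stretches of 137 bases below are printed because Mup19 and Mup17 had almost no reads in injured liver, as described below, and Mup3 and Mup21 were still present there. All are read 5′ to 3′ on the minus strand, and the capitals mark the motif TATATAA at which the stretches end.
Mup19 (chr4:61782249-61782385): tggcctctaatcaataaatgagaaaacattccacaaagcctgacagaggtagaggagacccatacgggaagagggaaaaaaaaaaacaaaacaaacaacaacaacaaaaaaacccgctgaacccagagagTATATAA
Mup17 (chr4:61595851-61595987): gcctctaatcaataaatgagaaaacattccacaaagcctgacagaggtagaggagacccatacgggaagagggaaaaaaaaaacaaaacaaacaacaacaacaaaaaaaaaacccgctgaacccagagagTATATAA
Mup3 (chr4:62087322-62087458): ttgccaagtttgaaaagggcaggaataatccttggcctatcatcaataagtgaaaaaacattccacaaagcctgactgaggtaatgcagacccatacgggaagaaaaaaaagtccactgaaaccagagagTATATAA
Mup21 (chr4:62150843-62150979): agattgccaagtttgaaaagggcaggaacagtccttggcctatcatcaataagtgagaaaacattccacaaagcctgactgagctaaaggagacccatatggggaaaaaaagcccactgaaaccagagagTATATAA
Compared with the Mup19 stretch, that of Mup17 was 97.1% identical, and the stretches of Mup11 and Mup2, not printed, were 95.7% and 94.2% identical. Mup3 and Mup21 reached 67.2% and 66.4%. Gaps in the alignment count as differences here, so the difference in length described next is part of these values. The printed lines show where the length differs, in the A-rich run between cccata and the capitals. That run held 66 bases in Mup19, 68 in Mup17 and Mup11, and 71 in Mup2, against 34 in Mup3 and 31 in Mup21. Adenine made up 58.8% to 60.6% of it in the first 4 genes, 50% in Mup3 and 45.2% in Mup21. In AAV-Ctrl against normal liver the mean of Mup2, with the longest run, was 8.07-fold lower. That of Mup21, with the shortest, was 8.39-fold lower. Mup7, which has no such stretch to compare, had a mean of 164 FPKM in AAV-Ctrl, against 34.6 for Mup21. Whether the run bears on the levels was not tested.

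Motifs were searched on both strands of the 300 bases as plain letters. TATATAA, a motif added after the sequences had been seen, was found in 6 of the 7 windows, all but that of Mup7, and in 3.24% of 32851 windows of all genes. TATAAA, which is not contained in TATATAA, was found in 0 of 7 (13.6% of all windows). The STAT5 motif TTCNNNGAA was found in 0 of 7 (8.30% of all windows), the C/EBP motif TTGCNNAA in 0 (10.8%) and the HNF4 motif CAAAGTCCA in 0 (0.475%). The full glucocorticoid receptor and HNF1 motifs were found in 0 of 7, each with 0.00913% of all windows. TGTTCT, a single arm of the glucocorticoid receptor motif, occurred in Mup3 and Mup21 and in 19.0% of all windows. These counts describe letters within the windows alone.

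The deposited values are read as FPKM, which scale reads to transcript length and library size, and the libraries correspond to 21488841 to 24188029 reads. Groups were compared with limma on log2(FPKM + 1) over 13517 genes that average 1 FPKM or more in some group, a filter all 10 members passed. Mup1, Mup12, Mup17 and Mup19 passed it only through normal liver, so for them the filter itself favours a lower value under CCl4. A gene was called at a Benjamini-Hochberg adjusted p under 0.05, two-sided, over all 13517. With 2 libraries per group an exact permutation test could not reach that threshold. Whether each library is a different animal is not stated, and the p values therefore measure only how far these samples scatter, which may be technical. Phpt1 itself had 1 to 5 reads in every library, so the values do not show whether the hairpin lowered it. On the first principal component, 64.1% of the variance, the AAV-shPhpt1 libraries stood apart from each other, at 40.1 and -2.26, and results that rest on them are given for each library.

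In normal liver the members differed widely in level. Mup3 was the highest, at 9646 and 9956 FPKM in replicates 1 and 2, and ranked as number 7 among all rows in both libraries. Mup7 followed with 7284 and 4167 FPKM, and Mup20, which encodes darcin, the male pheromone that attracts females, with 4427 and 2267 FPKM. Mup3 lay above the other members in both libraries. Mup7 lay above Mup20 within each library, although their ranges over the 2 libraries overlapped. Mup17 (980 and 295 FPKM), Mup11 (602 and 330 FPKM) and Mup21 (261 and 320 FPKM) came next, and the range of Mup17 overlapped both others. Mup1 had 96.6 and 49.2 FPKM, and lay above Mup19, Mup12 and Mup2 in both libraries. These lowest members had 41.9 and 24.0, 38.7 and 22.7, and 15.0 and 11.1 FPKM, with Mup2 below the other two in each. All 7 near-identical members and Mup20 were higher in replicate 1, while Mup3 and Mup21 were higher in replicate 2.

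**Figure D1:**
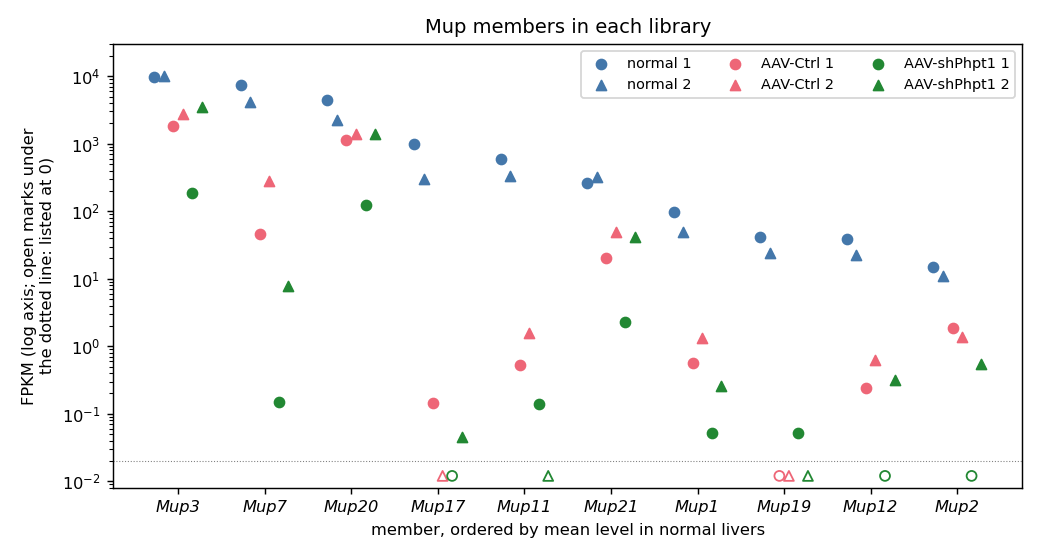
Level of each member in each library in FPKM on a logarithmic axis; circles are replicate 1 and triangles replicate 2, and open marks under the dotted line are values listed at 0. Every CCl4 library lies below both normal libraries for each member, and the circle of AAV-shPhpt1 lies far below its triangle for Mup3, Mup7, Mup20 and Mup21.

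After CCl4 and the control virus, levels differed widely between members: Mup3, Mup20, Mup7 and Mup21 had group means of 2317, 1268, 164 and 34.6 FPKM, and the remaining 6 members had 1.84 FPKM or less in either library. All 10 members were lower in both AAV-Ctrl libraries than in both normal libraries, a pattern shown by 12.5% of all genes tested. Of the 10, 7 were called lower, the near-identical members, and none higher. Over all genes tested 2.28% were called lower, 18.2% higher and 20.5% in either direction. Among the 7, Mup1, Mup12, Mup17 and Mup19 had passed the filter only through normal liver, which limits the comparison with these shares. The median log2 difference of the members was -4.73, against 0.35 over all genes tested. Of 16 secreted hepatocyte proteins tested, 0 were called lower and 2 higher, with a median log2 difference of -0.19. Of 10 pericentral hepatocyte markers tested, 6 were called lower and 0 higher. Whether fewer hepatocytes or less RNA per hepatocyte lay behind the Mup levels was not tested in this whole tissue.

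Mup3 read 1857 and 2778 FPKM in AAV-Ctrl, 4.23-fold below its normal mean of 9801 ± 219 (SD, n = 2). The groups did not overlap, but the log2 difference of -2.11 (SE 1.23) did not pass (limma, adjusted p = 0.234). Mup20 read 1149 and 1386 FPKM, 2.64-fold below normal at 3347 ± 1527 (SD, n = 2), with a log2 difference of -1.33 (SE 1.04, adjusted p = 0.363, limma). It showed the least change of the 10 members in ratio of means. Mup21 fell to 20.5 and 48.6 FPKM from 290 ± 41.7 (SD, n = 2), which was 8.39-fold lower in ratio and not called (log2 difference -3.15, SE 1.11, adjusted p = 0.0855, limma).

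The spread that enters these 3 tests is shared with the AAV-shPhpt1 group, where the same genes differ 11.3-fold to 18.8-fold between replicates. In a fit of the 2 groups alone, all 10 members were called lower, with adjusted p = 0.00672 for Mup3, 0.0403 for Mup20 and 0.00618 for Mup21 (limma). Calls over all genes rose as well, to 445 lower and 3535 higher of 13151 tested, against 308 and 2464 of 13517 in the main fit. Omitting either AAV-shPhpt1 library left the log2 differences at -2.11 for Mup3, -1.33 for Mup20 and -3.15 for Mup21.

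Mup7, the second most abundant member in normal liver, read 46.6 and 281 FPKM in AAV-Ctrl. Both values lay far below 7284 and 4167, and the replicates were 6.04-fold apart. Its mean was 34.9-fold lower, with a log2 difference of -5.57 (SE 1.14, adjusted p = 0.0280, limma), a call that a pseudocount of 0.1 ended (adjusted p = 0.0542). Mup17 went from 980 and 295 FPKM to 0.146 and 0, or from 26063 reads in the group to 3. The ratio of reads per library total was 8835, with an exact interval of 3023 to 42843 that covers counting error only, and Mup17 was called (log2 difference -8.98, SE 0.52, adjusted p = 0.00519, limma). Mup11 read 0.522 and 1.58 FPKM and was 444-fold lower in mean, with a log2 difference of -7.82 (SE 0.36, adjusted p = 0.00196, limma). Mup11 was called in every alternative run of this comparison, including each omission of 1 library.

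The low members of the near-identical group followed. Mup19, with 1215 reads in normal liver, had none in either AAV-Ctrl library, and with a floor of 3 reads over the group it was at least 412-fold lower. Mup1 had 0.560 and 1.34 FPKM, 76.8-fold below its normal mean (adjusted p = 0.00570, limma), and Mup12 had 0.244 and 0.628 FPKM, 70.4-fold lower (adjusted p = 0.00594). Mup2 changed less, at 1.84 and 1.39 FPKM and 8.07-fold lower (log2 difference -2.42, SE 0.29, adjusted p = 0.0140, limma), and its call also ended with a pseudocount of 0.1 (adjusted p = 0.0527). By group mean it ranked next to Mup7 among the near-identical members in AAV-Ctrl, having been the lowest in normal liver. Because Mup2 has 21.8% of its windows to itself, this change of order was measured on reads that may belong to copies.

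**Figure D2:**
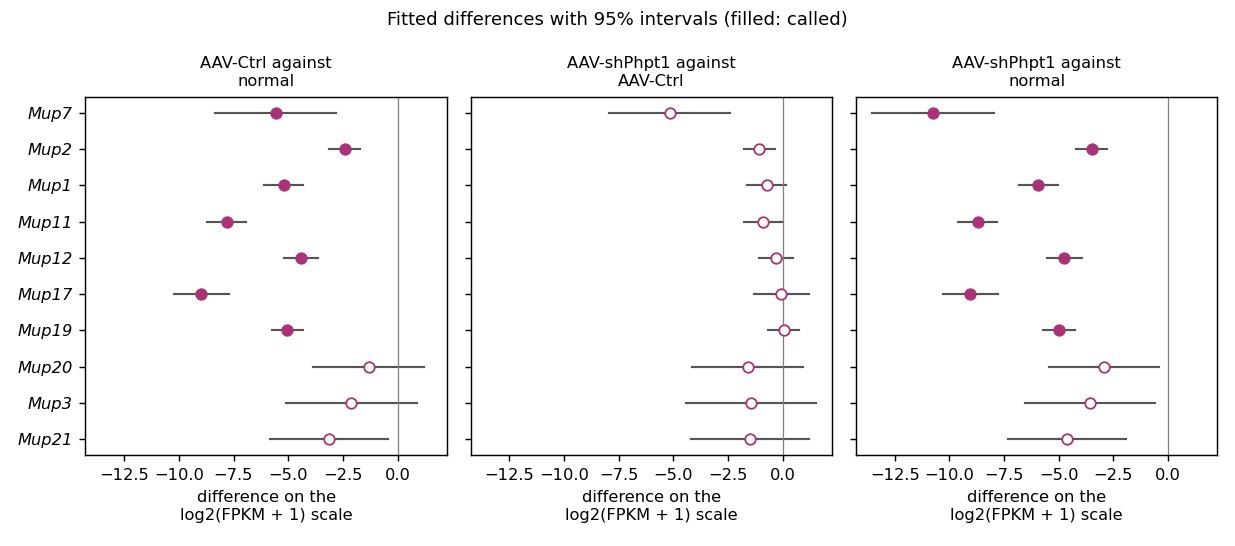
Fitted differences on the log2(FPKM + 1) scale for each member, ordered along the chromosome, in the 3 comparisons; points are estimates, lines 95% intervals, and filled points are called at adjusted p under 0.05. The 7 near-identical members are filled in both comparisons with normal liver, Mup20, Mup3 and Mup21 have wide intervals, and no point is filled between AAV-shPhpt1 and AAV-Ctrl.

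Since copies share reads, the sum over the 10 members is the more secure quantity. Normal livers gave 23392 and 17443 FPKM, AAV-Ctrl livers 3076 and 4499, and AAV-shPhpt1 livers 314 and 4980. The normal libraries were the highest and did not overlap with either CCl4 group, and the single AAV-shPhpt1 libraries lay below and above both AAV-Ctrl libraries. As a share of all reads the members took 2.11% and 1.59% in normal liver, against 0.288% and 0.419% under AAV-Ctrl and 0.0294% and 0.467% under AAV-shPhpt1. The Wilson 95% interval of the lowest share was 0.0287% to 0.0301%, which covers only counting error in that library and not the gap between replicates. The mean sum was 5.39-fold lower in AAV-Ctrl, at 3788 ± 1006 against 20417 ± 4207 FPKM (SD, n = 2). Adding the 38 other rows named Mup gave 5.38-fold.

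**Figure D3:**
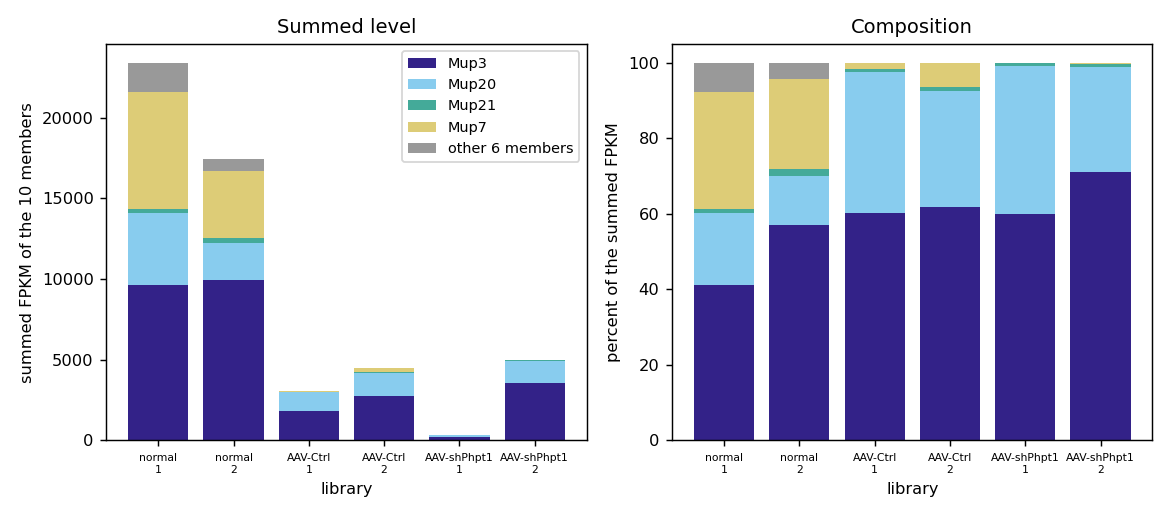
Left, the summed FPKM of the 10 members in each library, stacked by member with the bars starting at 0; right, the same as percent of the sum. The normal bars reach 23392 and 17443 FPKM, AAV-shPhpt1 replicate 1 only 314, and the share of Mup7 shrinks from 31.1% and 23.9% in normal liver to 0.159% or less in AAV-shPhpt1.

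The composition of the family changed with the level. The 7 near-identical members summed to 9058 and 4900 FPKM in normal liver, to 49.9 and 286 under AAV-Ctrl and to 0.391 and 9.08 under AAV-shPhpt1. The sums of the 3 groups did not overlap. Mup7 made up most of the AAV-Ctrl sums, with 46.6 and 281 FPKM. Of all genes tested, 12.5% lay lower without overlap in each CCl4 group than in normal liver. The share was 26.2% for AAV-shPhpt1 below AAV-Ctrl, where no member was called. The mean sum of the 7 was 41.5-fold lower in AAV-Ctrl than in normal liver, while the sum of Mup3, Mup20 and Mup21 was 3.71-fold lower. Mup3, Mup20 and Mup21 together made up 61.3% and 71.9% of the family in normal liver, 98.4% and 93.6% under AAV-Ctrl and 99.9% and 99.8% under AAV-shPhpt1. The ratio of Mup20 to Mup7 rose from 0.608 and 0.544 in normal liver to 24.7 and 4.92 under AAV-Ctrl and 834 and 176 under AAV-shPhpt1. In contrast the ratio of Mup3 to Mup20 stayed between 1.53 and 4.39 in all 6 libraries, and 2.18 and 4.39 were the normal values. Mup3 exceeded Mup21, its closest relative, 37.0-fold and 31.2-fold in normal liver and between 57.2-fold and 90.6-fold in the 4 CCl4 libraries.

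**Figure D4:**
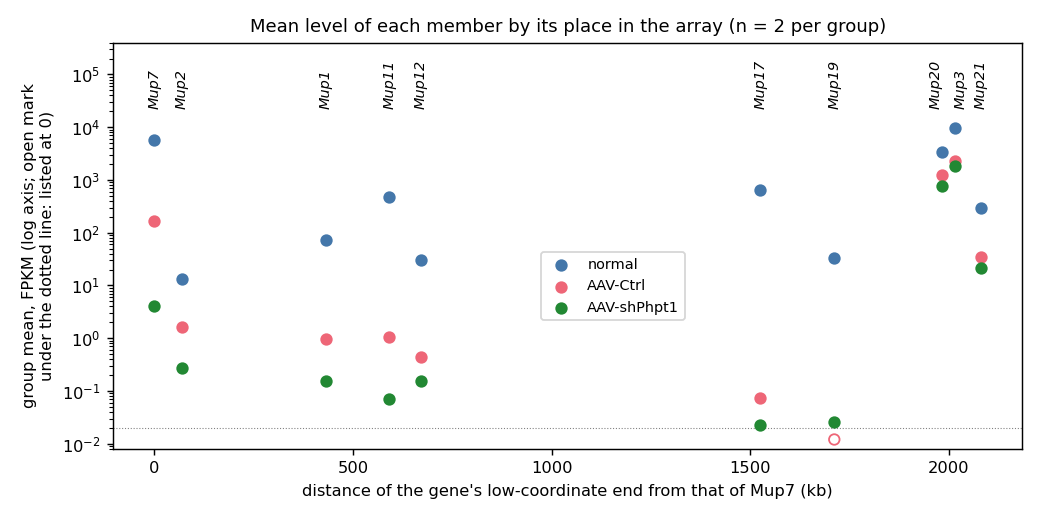
Group mean FPKM of each member on a logarithmic axis against the distance of its low-coordinate end from that of Mup7, in kb; the open mark under the dotted line is Mup19, listed at 0 in AAV-Ctrl. Mup20 and Mup3, near the far end of the array, show the narrowest gaps between the normal mean (3347 and 9801 FPKM) and the AAV-Ctrl mean (1268 and 2317 FPKM).

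Mup20 and Mup3, the members with the highest means in both CCl4 groups, lie next to each other. Mup20, Mup3 and Mup21 have their low-coordinate ends 1984, 2017 and 2081 kb from that of Mup7, beyond every near-identical member. Of the 19 protein-coding genes within 500 kb outside the array, 6 were below the filter, 10 were not called and 3 were higher in AAV-Ctrl than in normal liver. These were Inip, Snx30 and Slc31a2, a copper transporter, with log2 differences of 0.85, 0.80 and 0.74 (adjusted p = 0.0314, 0.0415 and 0.0311, limma), where 18.2% of all genes tested were called higher. None of the 19 was called lower, and none was called in the comparisons that involve AAV-shPhpt1.

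No member passed the test between livers given the hairpin and AAV-Ctrl livers. Of the 10, 0 were called, where 0% of all genes tested were called, and limma gave 3 members (Mup2, Mup7 and Mup11) and 1146 genes at an unadjusted p under 0.05. Limma-voom on reads recovered from the FPKM steps also called 0 members. Mup1, Mup2, Mup7 and Mup11 lay lower in both AAV-shPhpt1 libraries than in both AAV-Ctrl libraries, a pattern shown by 26.2% of all genes tested. Mup7 had 0.148 and 7.92 FPKM, or 3 and 165 reads, and its log2 difference was -5.18 (SE 1.14, adjusted p = 0.447, limma). Mup2 had 0 and 0.545 FPKM with a log2 difference of -1.07 (SE 0.29, adjusted p = 0.490, limma), and Mup11 had 0.140 and 0 FPKM. Mup17 and Mup19 had 3 and 0 reads in the AAV-Ctrl group, so that a lower level with the hairpin was not detectable at this depth.

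The abundant members divided the AAV-shPhpt1 libraries instead. Mup3 read 188 FPKM in replicate 1 and 3536 in replicate 2, an 18.8-fold gap. Mup20 read 123 and 1394 FPKM, an 11.3-fold gap, and Mup21 read 2.25 and 41.0 FPKM, an 18.2-fold gap. In all 3 genes replicate 1 lay below both AAV-Ctrl libraries, and replicate 2 lay above both of them for Mup3 and Mup20 and between them for Mup21. Over the 10 members AAV-shPhpt1 replicate 1 was the lowest library for 7, where it was the lowest for 9.26% of all genes tested. Without it, the log2 differences to AAV-Ctrl turned to 0.64 for Mup3, 0.14 for Mup20 and 0.36 for Mup21, and that of the summed level to 0.39, while without replicate 2 the summed level gave -3.59. No direction for the abundant members can be read from these 2 libraries.

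Against normal liver the AAV-shPhpt1 group gave the same 7 members lower that AAV-Ctrl had given, where 1.07% of all genes tested were called lower, 3.26% higher and 4.34% in either direction, with a median log2 difference of -4.87. The 2 comparisons share the normal libraries, through which alone Mup1, Mup12, Mup17 and Mup19 passed the filter. All 10 members were lower in both AAV-shPhpt1 libraries than in both normal libraries, again a pattern of 12.5% of all genes tested. Mup7 had a fitted difference of -10.75 (SE 1.14, adjusted p = 0.0154, limma), Mup17 of -9.04 (SE 0.52, adjusted p = 0.00359) and Mup11 of -8.71 (SE 0.36, adjusted p = 0.00101). Their order depends on the pseudocount of 1, since 0.1 gave -11.93 for Mup7 and -12.13 for Mup17. Mup3, Mup20 and Mup21 were not called (adjusted p = 0.116, 0.124 and 0.0669). Without AAV-shPhpt1 replicate 1 the log2 differences were -1.47 for Mup3, -1.18 for Mup20 and -2.79 for Mup21. Without replicate 2 they were -5.70, -4.68 and -6.48.

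Among the other rows named Mup, 38 in number and 27 of them pseudogenes, 13 were listed at 0 in all libraries and 14 reached 1 FPKM in at least 1. Of the 38, 10 were tested and 9 were called lower in each comparison with normal liver. Over all genes tested 2.28% were called lower in AAV-Ctrl and 1.07% in AAV-shPhpt1. The 9 passed the filter only through normal liver, where they are high. A lower value under CCl4 was thus nearly fixed in advance, and the 9 calls are no separate support. Among these were Mup18, at 8.81 and 5.80 FPKM in normal liver and 0.0972 and 0.0894 in AAV-Ctrl, and Mup8, at 7.30 and 3.45 against 0.378 and 0.956. The pseudogene Mup-ps20 had 7.42 and 10.7 FPKM in normal liver and 0 in either AAV-Ctrl library. The pseudogenes Mup-ps7, Mup-ps8, Mup-ps14, Mup-ps15, Mup-ps16 and Mup-ps17, also called, lay between 1.28 and 8.76 FPKM in normal liver and at most at 0.0839 in AAV-Ctrl. Mup6, Mup10, Mup-ps12 and Mup-ps19 reached 1 FPKM in a single library and were not tested. Mup14 went the other way. It had 3 and 2 reads in normal liver, 409 and 18 under AAV-Ctrl, and 0 and 225 under AAV-shPhpt1, with a log2 difference of 2.60 in AAV-Ctrl that was not called (adjusted p = 0.227, limma). The libraries of each CCl4 group were thus far apart for Mup14, in which 65.7% of the windows of Mup2 are found. A row named Gm21320, called Mup22 in the annotation, had 149 and 182 FPKM in normal liver, 20.1 and 16.1 under AAV-Ctrl, and 0.246 and 14.0 under AAV-shPhpt1 (log2 difference in AAV-Ctrl -3.13, adjusted p = 0.0739, limma).

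Genes outside the family that followed the summed level most closely were ranked by Pearson's r of log2(FPKM + 1) with that of the sum over the 6 libraries, among 214 candidates, as a description of points that share library and depth. Hsd3b5, a male-biased steroid dehydrogenase, had r = 0.998, at 305 and 207 FPKM in normal liver, 25.0 and 34.5 under AAV-Ctrl, and 1.18 and 40.1 under AAV-shPhpt1. Nudt7, a peroxisomal coenzyme A hydrolase, had 0.992 and Slco1a1, an organic anion transporter, 0.985. Cyp2d9, Cyp4a12b, Sult2a8, Serpina12 and Cyp4a12a followed with 0.9755, 0.9751, 0.969, 0.969 and 0.965. These genes were chosen for following the sum, so their low values in AAV-shPhpt1 replicate 1 come with the choice and are no separate result. There Cyp2d9 had 58.3 FPKM against 863 in replicate 2, and Sult2a8 had 5.46 FPKM against 143.

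A list of 13 male-biased liver genes without Mup gave 4 lower and 0 higher in AAV-Ctrl against normal liver. Over all genes tested 2.28% were called lower there and 18.2% higher. The median log2 difference of the 13 was -1.99. In AAV-shPhpt1 against normal liver 6 were lower, with a median of -3.86, where 1.07% of all genes tested were called lower. Susd4 fell to 0.403 and 0.278 FPKM from 22.9 and 17.1. Ugt2b38, a glucuronosyltransferase, fell to 0.789 and 3.56 FPKM from 27.6 and 17.3, and Selenbp2, a selenium-binding protein, to 183 and 398 FPKM from 1875 and 1965. Cyp7b1, an oxysterol hydroxylase, fell to 33.7 and 36.2 FPKM from 305 and 202. AAV-shPhpt1 replicate 1 was the lowest library for 11 of the 13, where it was the lowest for 9.26% of all genes tested. Of 18 female-biased genes, 9 were tested and 0 were called in any comparison, with 14 above 0 somewhere. Replicate 1 of AAV-shPhpt1 was the highest library for 12 of those 14, where it was the highest for 21.8% of all genes tested. The 14 include genes under the filter, which the 21.8% leaves out. Cyp2b9 had 34.03 FPKM there and at most 0.331 in the other 5 libraries, and Cyp2a4 had 126 against 5.11 FPKM in replicate 2. Xist did not exceed 0.0356 FPKM in any library, and Kdm5d, from the Y chromosome, read 6.69 to 8.91 FPKM in all 6.

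**Figure D5:**
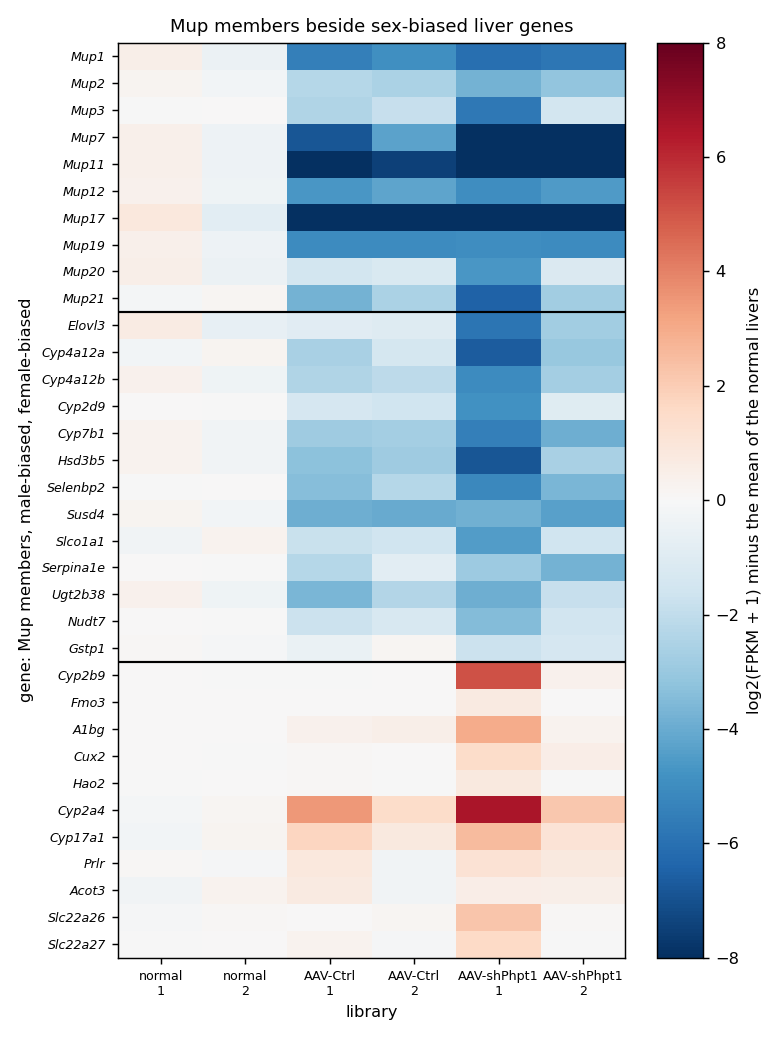
Heat map of log2(FPKM + 1) minus the mean of the normal libraries for the 10 members, 13 male-biased genes and the 11 female-biased genes that reach 0.5 FPKM in a library, with colours ending at 8 and -8. Blue marks values below the normal mean and red values above it, and the column of AAV-shPhpt1 replicate 1 holds the darkest blue in the rows of Mup3, Mup20 and Mup21 and the darkest red in those of Cyp2b9 and Cyp2a4.

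Of 10 genes of growth hormone signalling, 2 were higher and 2 lower in AAV-Ctrl than in normal liver, where 18.2% of all genes tested were called higher and 2.28% lower, so the share called higher is near the background. Ghr, the growth hormone receptor, read 257 and 207 FPKM against 446 and 503, a log2 difference of -1.04 (SE 0.16, adjusted p = 0.0181, limma). It read 224 and 239 FPKM in AAV-shPhpt1 replicates 1 and 2, and its part in the Mup levels was not tested. Igfals, which encodes a carrier of insulin-like growth factors, was also lower (log2 difference -1.30, adjusted p = 0.0488, limma), and the kinase Jak2 (0.78, adjusted p = 0.0410) and the phosphatase Ptpn11 (0.61, adjusted p = 0.0383) were higher. Stat5b had 15.5 and 11.4 FPKM in normal liver, 15.7 and 14.1 under AAV-Ctrl, and 18.1 and 18.7 under AAV-shPhpt1, and was not called.

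Of 10 other known regulators, 9 were tested, and 0 were called in AAV-Ctrl against normal liver. Zhx2, a transcription factor, had 8.40 and 8.999 FPKM in normal liver and 7.47 and 6.90 in AAV-Ctrl (adjusted p = 0.326, limma). Nr3c1, the glucocorticoid receptor, had 29.96 and 32.8 against 33.99 and 35.3 FPKM (adjusted p = 0.412, limma). Cebpb was lower in AAV-shPhpt1 than in normal liver, with 23.2 and 23.1 against 47.1 and 56.7 FPKM (log2 difference -1.12, adjusted p = 0.0239, limma). Among 10 other lipocalin genes tested, 2 were higher and 0 lower in AAV-Ctrl, a share near the 18.2% of all genes tested that were called higher. Lcn2, an iron-carrier protein of inflammation, rose from 15.0 and 7.85 to 312 and 393 FPKM, and Orm2 from 28.1 and 7.60 to 139 and 131 FPKM.

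Cell type markers were read beside the Mup levels. Secreted hepatocyte proteins, 16 genes, summed to 120319 to 178238 FPKM in all 6 libraries. Alb alone held 72939 to 129572 FPKM, so the sums say little about the other genes. In AAV-Ctrl against normal liver 2 of the 16 were higher and 0 lower, with a median log2 difference of -0.19. Pericentral hepatocyte markers fell in 6 of 10 cases, from sums of 9271 and 9759 FPKM to 2464 and 1324 under AAV-Ctrl and 965 and 867 under AAV-shPhpt1. Periportal markers had 1 higher and 2 lower of 12. In AAV-Ctrl against normal liver macrophage markers were higher in 6 of 7 cases and stellate cell and myofibroblast markers in 7 of 8. Macrophage sums were 49.6 and 41.6 FPKM in normal liver, 465 and 430 under AAV-Ctrl, and 280 and 95.6 under AAV-shPhpt1. Endothelial and bile duct markers had 2 higher each, of 6 and 4 tested, and neutrophil, lymphocyte and red blood cell markers 0 of 3, 5 and 5. Over all genes tested 18.2% were called higher and 2.28% lower. AAV-shPhpt1 replicate 1, the library with the lowest Mup sum, had the highest sums of lymphocyte markers, at 16.5 FPKM against 4.09 to 7.60 in the others, and of neutrophil markers, at 49.3 against 1.80 to 16.4. The part of these markers in the Mup levels was not tested.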

How the data were processed

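The expression table deposited by the authors names no unit, and its values behave as FPKM. The submitters' processing notes name mm8, mm9 and Bowtie 0.12.2 without their role. The aligner, counter and build of this table were not given in the sources used here. Libraries were made with a TruSeq kit from total RNA, per the labels' protocols. FPKM times mean transcript length (GENCODE M21, GRCm38) gave whole reads, within 0.05, for 96.3% to 96.6% of values, and these gave depth and counting intervals. One limma 3.58.1 fit in R 4.3.3 on log2(FPKM + 1) covered the 6 libraries (residual degrees of freedom 3, prior 3.21), and adjusted p values are from limma. It was tested on simulated data. All 10 members are named, other Mup rows only from 1 FPKM in a library, and from the gene lists up to 4 called genes in each direction in AAV-Ctrl against normal. Members and lists were chosen with earlier results of these data known. Promoter sequences are from RefSeq (GRCm38.p6). Alternatives covered pseudocount, filter, scaling, replicate block, omitted libraries and limma-voom.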

Additional observations from a re-analysis of the deposited data

How the results depend on the processing

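Direction held for each member in both comparisons with normal liver under every alternative run. The number of members called in AAV-Ctrl against normal was 7, 5 with a pseudocount of 0.1, which ended the calls of Mup2 and Mup7 (adjusted p = 0.0527 and 0.0542, limma), and 2 with no filter on low values, where 55222 genes are tested. It was 1 to 9 when 1 library was left out, with 1 without either AAV-Ctrl library (Mup11) and 3 without either normal library. Against normal, AAV-shPhpt1 gave 7, with 1 under no filter, 2 with limma-voom, an alternative chosen after seeing the data, and 3 to 10 with 1 library left out. Over all genes, 2772 were called in AAV-Ctrl against normal, and 137 with no filter, 1295 with median centring (566 higher, 729 lower), 1092 with quantile normalization (632 higher, 460 lower) and 6 to 3739 with 1 library left out. The median over all genes, 0.35 on the log2 scale as deposited, became -0.10 with centring and -0.04 with quantile normalization, and both still called 7 members. For AAV-shPhpt1 against AAV-Ctrl the counts over all genes were 0, 129 with no filter, and 0 to 377 with 1 library left out. For AAV-shPhpt1 against normal they were 586, 93 with no filter, 313 with median centring, 236 with quantile normalization, 384 with the replicate block, 202 with only the 2 groups, 159 with limma-voom and 9 to 2289 with 1 library left out. The summed level in AAV-Ctrl against normal was -2.43 on the log2 scale, -2.82 with median scaling and -2.73 to -2.18 with 1 library left out. It was -0.52 (-3.59 to 0.39) for AAV-shPhpt1 against AAV-Ctrl and -2.95 (-6.02 to -2.04) against normal. Between the CCl4 groups, leaving out AAV-shPhpt1 replicate 1 turned Mup3 to 0.64, Mup20 to 0.14, Mup21 to 0.36 and Mup19 to 0, and Mup17 turned to 0.0347 with median centring and 0.0315 without AAV-Ctrl replicate 1. With 1 library left out these values ranged from -3.59 to 0.64 for Mup3, -3.35 to 0.14 for Mup20, -3.33 to 0.36 for Mup21, 0 to 0.0723 for Mup19 and -0.17 to 0.0315 for Mup17. The cause was not tested. Replicate numbers did not pair the samples (correlations of deviations 0.0727, 0.153 and 0.0406), and the replicate block called Mup21 as well, 8 members in each comparison with normal. The planned edgeR and DESeq2 alternatives were not run, and limma-voom on the recovered reads was run in their place. Depth limits the members with few reads in CCl4 livers.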
